A study of Homo sapiens with 12 samples.

Results

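The Hippo pathway was followed through 38 genes of its kinases, regulators, transcription factors and YAP targets, out of 22564 genes compared. Each was found by its symbol in the authors' deposited comparison, taking the entry with the highest mean where a symbol occurred more than once, and all 38 were measured. The 38 genes were grouped by role into 11 upstream regulators, 7 core kinases and cofactors, 7 effectors and 13 target genes. Total RNA was sequenced from A549, an established human lung adenocarcinoma line, with 6 libraries from cells transfected with siRNA against YTHDC1 (siYTHDC1) and 6 from cells given a scrambled control siRNA (siSCR). Both siRNAs were used at 40 nM for 48 to 72 h. YTHDC1 is a nuclear protein that binds N6-methyladenosine, a methyl mark on RNA. The labels name no other agent and do not say whether the libraries of a group came from separate cultures, so a p-value here rests on the variation among libraries, part or all of which may be technical.

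In the Hippo pathway, the MST kinases with their scaffold SAV1 switch on the LATS kinases, which act together with MOB1. LATS phosphorylates YAP and its paralog TAZ, which then stay in the cytoplasm or are degraded. When the kinases are quiet, YAP and TAZ enter the nucleus and bind TEAD factors on DNA, which switches on genes of growth, matrix and adhesion. Much of this control acts on proteins, through phosphorylation and location, and RNA levels do not show it.

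The authors' deposited table, made with DESeq2, gives 1 mean per gene over all 12 libraries, a log2 fold change of siYTHDC1 over siSCR and its standard error (SE), all from the authors' model. It holds no value per library, so the values in single libraries, their overlap between groups and the depth of each library are unknown here. A gene was called where the adjusted p was under 0.001 and the log2 fold change over 0.5 in size, the limits that the study used. YTHDC1 itself, which checks the labels, fell by 71.7% in siYTHDC1, a log2 value of -1.82 with an SE of 0.11 (adjusted p = 5.29e-59). The epithelial markers KRT8, KRT18, KRT19, CDH1 and EPCAM had mean normalised counts of 27600.4, 14908, 673, 1011 and 58.4. Of 9 markers of blood, endothelial cells and fibroblasts, 4 were listed, with means between 2.13 and 10.2, and the other 5, PTPRC, CD3E, PECAM1, VWF and DCN, were not in the table.

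The pathway moved at a few points. ANKRD1 and NT5E, genes that YAP switches on, were higher in siYTHDC1, as was VGLL4, a cofactor that competes with YAP for TEAD. The transcription factor genes TEAD2 and TEAD3 were lower. The other 33 genes, with YAP1, WWTR1 (which encodes TAZ), TEAD1, every core kinase and every upstream regulator among them, were not called. The call rate was 13.2% (5 of 38), against 6.76% of all genes tested. The members were chosen with earlier results of these data known, so these rates are a description and not a test. With 3 of 38 higher and 2 lower, the corresponding shares over all genes were 3.05% and 3.71%. Among genes with a mean of at least 100, with p-values adjusted again, 5 of 37 members were called, against 7.68% of such genes. A test of a change beyond 0.5 in size, stricter than a limit on the estimate, left TEAD2 as the 1 call. In bulk RNA, a change in the share of cells that express a gene and a change in RNA per cell cannot be told apart.

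With no limit on their size, differences were about as frequent as among genes with a mean of at least 100. Without the limit on the fold change, 14 of 38 members (36.8%) had an adjusted p under 0.001, 11 above 0 and 3 below it, against 18.2% of all genes. At that p 2061 of all 22564 genes lay above 0 and 2040 below. Among the 10410 genes with a mean of at least 100 it was 1711 and 1656. The members were well expressed, with a median mean count of 1137 against 65.8 over all genes. Among genes with a mean of at least 100 the share under an adjusted p of 0.001 was 32.3%. Their median mean count was 536, so that set is not matched to the level of the members. The median log2 fold change of the members was 0.064 (quartiles -0.098 and 0.25), beside -0.0023 (quartiles -0.25 and 0.23) for all genes and 0.011 for genes with a mean of at least 100. Of the 38, 23 lay above 0 and 15 below.

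**Figure D1:**
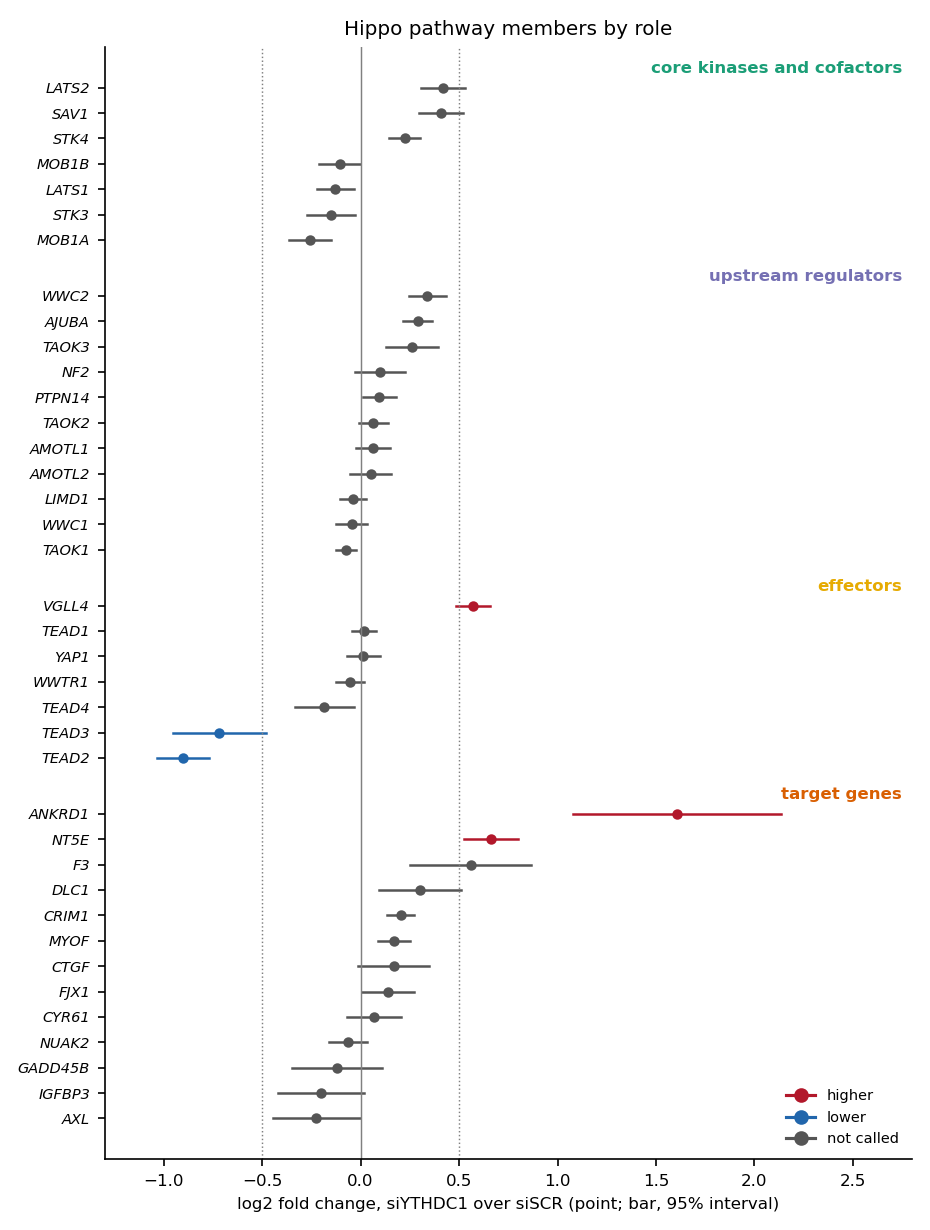
Log2 fold change of siYTHDC1 over siSCR (x axis) for each of the 38 genes (y axis), grouped by role; points are the values of the authors' deposited table, bars the 95% intervals computed from the SE, and dotted lines the limits of 0.5 in size. ANKRD1, NT5E and VGLL4 in red were called higher and TEAD2 and TEAD3 in blue lower, while no upstream regulator or core gene was called; some of their bars hold 0, others, such as those of WWC2, AJUBA and MOB1A, lie clear of 0 inside the limit, and those of LATS2 and SAV1 reach just past it.

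Upstream regulators relay signals from cell contacts, the cytoskeleton and polarity. By the authors' DESeq2 values 0 of 11 were called (6.76% of all genes), and their median log2 fold change was 0.065. At an unadjusted p under 0.05, 4 of the 11 lay above 0 and 1 below, where 20% and 19.4% of all genes did. Among genes with a mean of at least 100 these numbers were 3183 and 2947 of 10410. Of the 11 upstream regulators, 3 (27.3%) passed the adjusted p with values above 0 but under the limit. In either direction 18.2% of all genes passed that p, and 32.3% of those with a mean of at least 100, as all 11 had. WWC2, a scaffold related to KIBRA, had 0.34 (SE 0.048, adjusted p = 3.41e-11), while KIBRA itself, encoded by WWC1, had -0.044 (SE 0.040, adjusted p = 0.459). WWC2 shares 2177 exon bases with CLDN22 on the opposite strand. AJUBA, a LIM protein that holds LATS back, had 0.29 (SE 0.037, adjusted p = 1.2e-13), and LIMD1 of the same family had -0.039 (SE 0.034, adjusted p = 0.434). TAOK3, 1 of the 3 TAO kinases that phosphorylate MST, had 0.26 (SE 0.068, adjusted p = 0.000693). The other TAO kinases lay at -0.074 (TAOK1, adjusted p = 0.0215) and 0.065 (TAOK2, adjusted p = 0.200). In the WWC, TAOK and AJUBA/LIMD1 families, then, a member that passed the adjusted p stood beside members near 0.

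NF2, which encodes merlin, the tumour suppressor that recruits LATS to the membrane, had a log2 value of 0.099 (SE 0.065, adjusted p = 0.263). The angiomotin-like genes AMOTL1 and AMOTL2, whose proteins tether YAP at junctions, had 0.063 (SE 0.044, adjusted p = 0.307) and 0.051 (SE 0.054, adjusted p = 0.533). PTPN14, a phosphatase that binds YAP, had 0.094 (SE 0.043, adjusted p = 0.0803). The intervals of these 4 genes lay between -0.054 and 0.23, well within the limit of 0.5.

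In the core cassette 0 of 7 genes were called at the study's limits (6.76% of all genes). An adjusted p under 0.001 in the authors' DESeq2 values was reached by 4 of the 7 (57.1%), 3 above 0 and 1 below. Over all genes 18.2% passed that p in either direction, and 32.3% of those with a mean of at least 100 did. At an unadjusted p under 0.05, 3 of the core genes lay above 0 and 4 below (20% and 19.4% of all genes). Among genes with a mean of at least 100, as all 7 had, it was 3183 and 2947 of 10410. LATS2 had a log2 value of 0.42 (SE 0.057, adjusted p = 4.54e-12) and LATS1 of -0.13 (SE 0.048, adjusted p = 0.0239). Both LATS genes were measured at a like level, with mean counts of 558 and 889, or 99.4 and 105 per kb of exon. The difference of their log2 fold changes, LATS1 minus LATS2, was -0.55 (95% interval -0.69 to -0.40). Of the MST kinases, STK4 (MST1) had 0.22 (SE 0.040, adjusted p = 3.57e-07) and STK3 (MST2) -0.15 (SE 0.063, adjusted p = 0.0526), a difference of -0.37 (95% interval -0.52 to -0.23) for STK3 minus STK4. SAV1, the scaffold of the MST kinases, had 0.41 (SE 0.056, adjusted p = 1.08e-11). An exon stretch of 1789 bases of SAV1 is shared with ATL1 on the opposite strand, which had a mean count of 49.1 and lay at 0.58 (SE 0.20, adjusted p = 0.0173). Whether the counting used the strand is not stated, so reads of the pair may not have been kept apart. MOB1A, which activates LATS, was the core gene below 0 with an adjusted p under 0.001, at -0.26 (SE 0.055, adjusted p = 2.11e-05), and MOB1B had -0.11 (SE 0.053, adjusted p = 0.121), a difference of -0.15 (95% interval -0.30 to -0.0022) for MOB1A minus MOB1B. The MOB1 genes are close copies, and their values are uncertain where reads could be shared.

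Paralogs of the pathway can stand in for each other, so 17 pairs within families were compared by the difference of their log2 fold changes. The 95% interval of the difference left 0 in 13 of 17 pairs, with the covariance between genes taken as 0 since the table does not give it. The pairs are not independent, as 6 of the 17 draw on the same 4 TEAD genes, and no share for unrelated genes was computed, so the count is a description of these pairs alone. With each SE multiplied by 2.14, the robust spread of the statistic over all genes, the intervals of 8 pairs left 0. The widest gaps were TEAD1 minus TEAD2 at 0.92 (95% interval 0.77 to 1.06) and TEAD1 minus TEAD3 at 0.73 (95% interval 0.49 to 0.98). Among kinases and regulators LATS1 minus LATS2 was widest, followed by WWC1 minus WWC2 at -0.38 (95% interval -0.51 to -0.26), STK3 minus STK4, TAOK1 minus TAOK3 at -0.34 (95% interval -0.48 to -0.19) and AJUBA minus LIMD1 at 0.33 (95% interval 0.23 to 0.43). For YAP1 minus WWTR1 the interval held 0, at 0.067 (95% interval -0.044 to 0.18), and likewise for AMOTL1 minus AMOTL2 at 0.011 (95% interval -0.13 to 0.15), TEAD2 minus TEAD3 at -0.18 (95% interval -0.46 to 0.088) and CTGF minus CYR61 at 0.10 (95% interval -0.13 to 0.33).

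**Figure D2:**
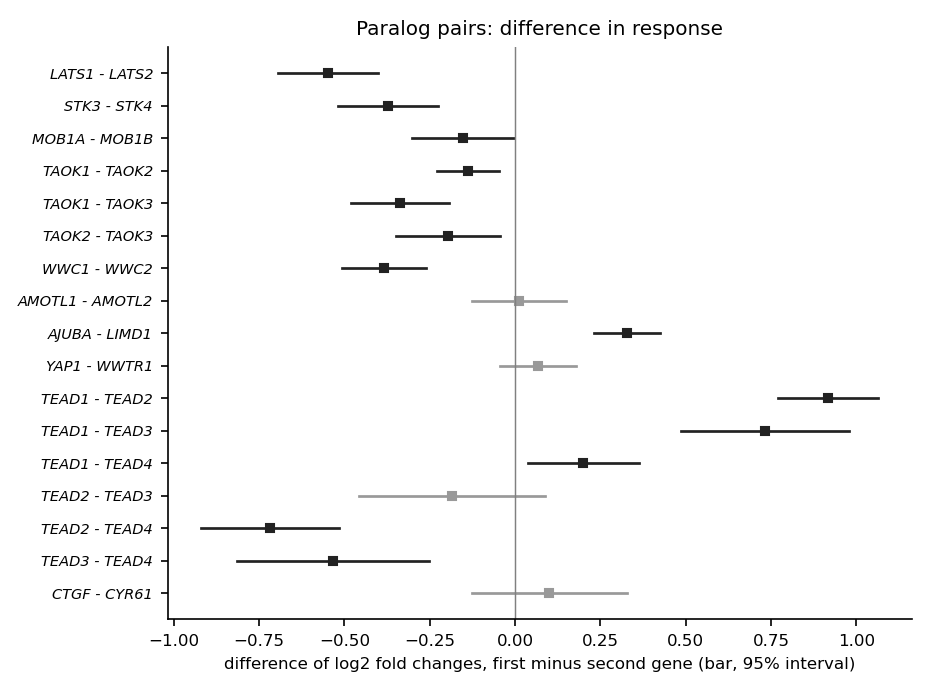
Difference of the log2 fold changes, first minus second gene (x axis), for 17 pairs of related genes (y axis); squares are differences and bars their 95% intervals, black where the interval leaves 0 (13 pairs) and grey where it holds 0 (4 pairs). The pairs of TEAD1 with TEAD2 and TEAD3 lie furthest to the right, and LATS1 with LATS2 and TEAD2 with TEAD4 furthest to the left.

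Of the 7 effectors, 1 was called higher and 2 lower (3.05% and 3.71% of all genes). YAP1 had a mean count of 1920.2 and a fold change on the log2 scale of 0.015 (SE 0.044, adjusted p = 0.853), and WWTR1 a mean of 3372 and -0.052 (SE 0.037, adjusted p = 0.303). Their 95% intervals, -0.071 to 0.10 and -0.12 to 0.019, leave out a change of 0.5 in either direction.

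The TEAD factors, which hold YAP and TAZ on DNA, split. TEAD2 (ENSG00000074219.9, chromosome 19, 49843852 to 49865714, minus strand, GRCh37) fell by 46.5%, which is -0.90 on the log2 scale (SE 0.068, 95% interval -1.03 to -0.77, adjusted p = 1.04e-37). TEAD3 (ENSG00000007866.14, chromosome 6, 35441374 to 35464856, minus strand, GRCh37) fell by 39.1%, which is -0.72 on that scale (SE 0.12, 95% interval -0.95 to -0.48, adjusted p = 4.65e-08). TEAD1 had a log2 value of 0.016 (SE 0.031, adjusted p = 0.765), and TEAD4 of -0.18 (SE 0.077, adjusted p = 0.0521). TEAD2 shares 319 exon bases with CD37 on the opposite strand, a gene with a mean count of 9.37 against 679.5 for TEAD2. The call of TEAD3, with a mean count of 102, was lost when the statistic was divided by its robust spread over all genes (adjusted p = 0.0767).

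TEAD1 was the most abundant of the 4 per length. Mean counts per kb of exon were 583 for TEAD1, 228 for TEAD2, 199 for TEAD4 and 33.5 for TEAD3. TEAD1 thus made up 55.9% of the summed TEAD level, TEAD2 21.8%, TEAD4 19.1% and TEAD3 3.21%. Group levels estimated from each mean and fold change, taking the groups as equal in size and leaving the batch term aside, gave a summed level of 1130.3 per kb in siSCR and 957 in siYTHDC1, an estimated difference of -15.3%. With the longest transcript as the length the difference was -15.7%. These are estimates from model values, with no error from libraries.

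VGLL4 (ENSG00000144560.9, chromosome 3, 11597543 to 11812824, minus strand, GRCh37) rose 1.48-fold, with a log2 fold change of 0.57 (SE 0.044, 95% interval 0.48 to 0.66, adjusted p = 6.09e-36). Its SE was low for its level, larger than that of only 6.4% of the 500 genes nearest in mean count, and the interval reaches below the limit of 0.5. VGLL4, with a mean count of 793, shares 1597 exon bases with ATG7, an autophagy gene on the opposite strand. The value of ATG7 was 0.12 (SE 0.060, mean count 674, adjusted p = 0.111). As for SAV1 and ATL1, reads of this pair may not have been kept apart, since use of the strand in counting is not stated.

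**Figure D3:**
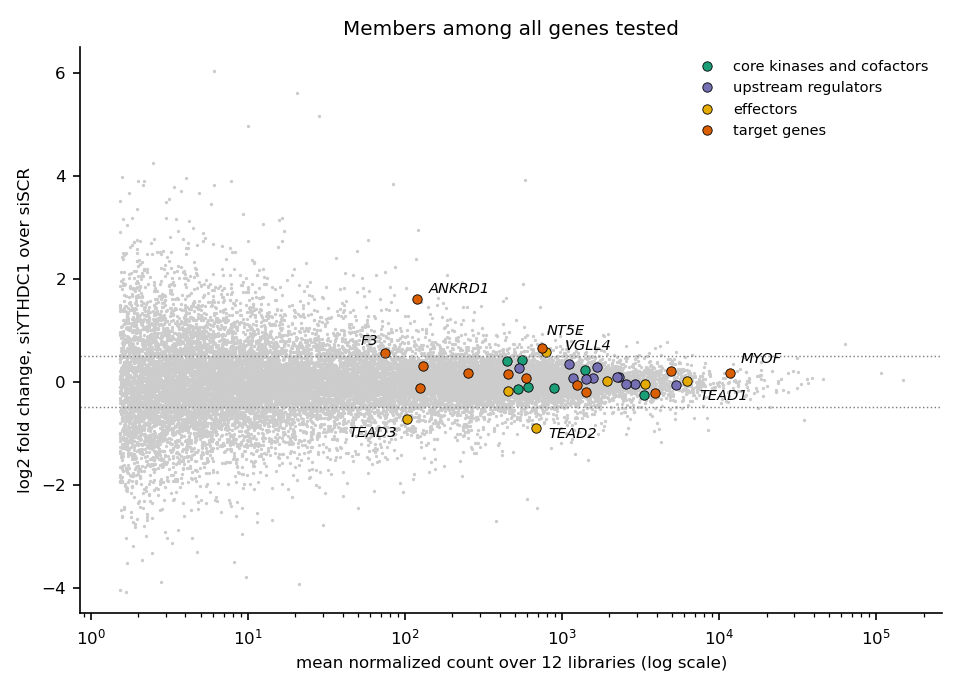
The log2 ratio of siYTHDC1 to siSCR (y axis) is plotted against the mean normalised count of the 12 libraries (log-scaled x axis), with 1 grey point per gene tested and the 38 pathway genes coloured by role; dotted lines mark 0.5 in size. Most coloured points lie between the dotted lines across a wide range of means, with ANKRD1 at 1.61 above its neighbours and TEAD2 at -0.90 below.

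By the authors' DESeq2 values 2 of the 13 target genes were called higher and 0 lower (3.05% and 3.71% of all genes). At an unadjusted p under 0.05, 7 lay above 0 and 1 below (20% and 19.4% of all genes). Among genes with a mean of at least 100, as 12 of the 13 had, it was 3183 and 2947 of 10410. ANKRD1, a muscle and stress-responsive ankyrin repeat protein often used to read YAP activity (ENSG00000148677.6, chromosome 10, 92671853 to 92680844, minus strand, GRCh37), rose 3.04-fold. Its log2 fold change was 1.61 (SE 0.27, 95% interval 1.08 to 2.13, adjusted p = 3.1e-08) at a mean count of 118. NT5E, which encodes CD73, an enzyme that makes adenosine outside the cell (ENSG00000135318.7, chromosome 6, 86159302 to 86205509, plus strand, GRCh37), rose 1.58-fold, with 0.66 (SE 0.070, adjusted p = 1.55e-19) and a 95% interval of 0.52 to 0.80. The call of ANKRD1 was lost with the statistic divided by its robust spread (adjusted p = 0.0713), while that of NT5E was kept (adjusted p = 0.000501).

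CTGF and CYR61, now also called CCN2 and CCN1, are matricellular proteins and, with ANKRD1, the usual readouts of YAP and TEAD. CTGF had a log2 value of 0.17 (SE 0.092, adjusted p = 0.163) at a mean count of 251, and CYR61 of 0.068 (SE 0.069, adjusted p = 0.518) at 591. The upper ends of their intervals were 0.35 and 0.20, under the lower end of 1.08 for ANKRD1. Of these 3 readouts, ANKRD1 alone was called.

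The bases before the RefSeq start of ANKRD1, CTGF and NT5E are shown as the promoter letters of the called targets and of CTGF, a usual readout. Coordinates are GRCh38.p14, the build of the RefSeq promoter table, while all gene positions given with expression values are GRCh37. Sequences run 5′ to 3′ on the gene's strand, 250 bases ending at the base before the start. Capitals mark GGAATG, searched on both strands and part of the TEAD motif, or TGANTCA. The latter is a loose form of the AP-1 motif, with any base at N. ANKRD1 lies at chr10:90921088-90921337 (minus strand), CTGF at chr6:131951373-131951622 (minus strand) and NT5E at chr6:85449833-85450082 (plus strand).
ANKRD1: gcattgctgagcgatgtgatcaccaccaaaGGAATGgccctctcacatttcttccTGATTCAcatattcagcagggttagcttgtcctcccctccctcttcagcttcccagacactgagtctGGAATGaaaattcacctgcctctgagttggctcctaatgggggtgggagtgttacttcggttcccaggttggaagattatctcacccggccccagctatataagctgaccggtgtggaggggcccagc
CTGF: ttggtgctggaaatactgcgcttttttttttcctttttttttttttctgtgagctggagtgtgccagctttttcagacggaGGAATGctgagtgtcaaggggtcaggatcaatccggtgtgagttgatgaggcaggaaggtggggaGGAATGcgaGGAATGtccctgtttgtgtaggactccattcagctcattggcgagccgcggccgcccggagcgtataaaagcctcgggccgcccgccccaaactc
NT5E: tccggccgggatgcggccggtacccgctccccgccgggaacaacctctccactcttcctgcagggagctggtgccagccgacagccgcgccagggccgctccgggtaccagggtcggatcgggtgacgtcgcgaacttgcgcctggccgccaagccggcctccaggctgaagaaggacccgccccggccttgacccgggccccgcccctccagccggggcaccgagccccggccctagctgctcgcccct

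CTGF held GGAATG 3 times, starting 169, 104 and 95 bases before the start, and ANKRD1 held it at 220 and 128 bases, with TGATTCA at 195 bases. NT5E held neither word. In windows from 250 bases before to 50 after the start, RefSeq entries were matched for 31 of the 38 genes, in 45 windows. GGAATG stood in 11 of these 45 windows (24.4%), against 14% of 35116 windows of the same length over all genes. By role the counts were 4 of 11 windows for targets, 5 of 15 for upstream regulators, 1 of 8 for core genes and 1 of 11 for effectors. The target genes with the word were ANKRD1, AXL, CTGF and NUAK2. TGANTCA stood in 4 of 45 windows (8.89%), against 7.71% of all windows, and F3 and ANKRD1 were the targets that held it. A match is a description of letters and no proof of a site. DLC1, TEAD4, STK3, CRIM1, TEAD1, CYR61 and LIMD1 had no entry.

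The remaining targets gave small or uncertain values. MYOF, the membrane repair protein myoferlin, was the most abundant of the 38 genes, with a mean count of 11699.7 or 1378 per kb of exon, and had 0.17 (SE 0.041, adjusted p = 0.000196). CRIM1, a transmembrane regulator of BMP signals, had 0.20 (SE 0.036, adjusted p = 1.53e-07). Both had an adjusted p under 0.001 with a change under the limit. F3, the tissue factor that starts coagulation, lay above the limit at 0.56 (SE 0.16, adjusted p = 0.00187), but missed the adjusted p at the lowest mean count of the members, 74.8. DLC1, a tumour suppressor gene, had 0.30 (SE 0.11, adjusted p = 0.0181), and FJX1, the human four-jointed homologue, 0.14 (SE 0.067, adjusted p = 0.100).

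Targets with values below 0 were AXL, IGFBP3, GADD45B and NUAK2, and none was called. AXL, a receptor tyrosine kinase, had -0.22 (SE 0.11, adjusted p = 0.119), and IGFBP3, a binding protein of insulin-like growth factors, -0.20 (SE 0.11, adjusted p = 0.168). The stress-induced GADD45B had -0.12 (SE 0.12, adjusted p = 0.504), and the kinase gene NUAK2 -0.066 (SE 0.049, adjusted p = 0.342). Over all 13 targets, 9 lay above 0 and the median log2 fold change was 0.17.

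Levels were ordered per length, with MYOF first. After it came AXL (757 per kb of exon), CRIM1 (678), TEAD1 (583) and MOB1A (517), and the lowest were DLC1 (10.2), F3 (25.9), TEAD3 (33.5) and STK3 (41.7). ANKRD1, at 66.1 per kb, ranked 32 of 38, and NT5E, at 165, ranked 20. These levels are means over both groups with no spread over libraries, so neighbours in the order cannot be compared beyond error. The order also depends on the length used. Per kb of the longest transcript STK3 had 98.5, above ANKRD1 at 66.1, and TEAD1 (663) fell below MOB1A (680) and WWTR1 (669).

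The SE of a log2 fold change falls as the count rises, so each SE was set against those of the 500 genes nearest in mean count. Of the 38 genes, 9 had an SE above that of 90% of their neighbours, against 9.58% of all genes, and of the 13 targets 5 did. These 5 were ANKRD1, CYR61, AXL, NT5E and IGFBP3, and the other 4 were MOB1A, NF2, TEAD2 and TEAD4. The SE of ANKRD1 was above all 500 neighbours and 2.32 times their median. For AXL it was 3.28 times and for IGFBP3 2.69 times the median of the neighbours, at mean counts of 3889 and 1423. Their intervals of -0.45 to -0.0039 and -0.42 to 0.017 were therefore wide for genes at those counts. Which libraries carry the spread, and whether batch moves with it, was not tested, since no library values are held.

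**Figure D4:**
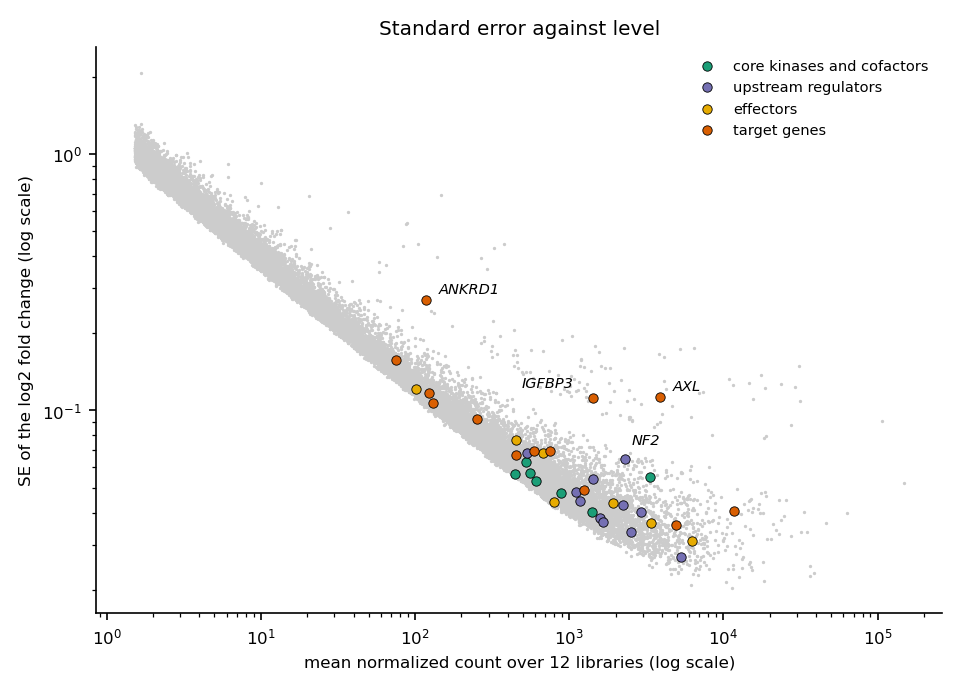
Standard error of the log2 fold change (y axis, log scale) against the mean normalised count of the 12 libraries (log-scaled x axis), with 1 grey point per gene tested and the 38 pathway genes coloured by role. ANKRD1 (SE 0.27), AXL and IGFBP3 (both SE 0.11) lie above the band of genes of their level, while most other members lie inside it.

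Other genes of the pathway outside the 38 were summarised as lists. Of 37 other Hippo regulators, 36 were measured, 0 were higher and 2 were lower (3.05% and 3.71% of all genes). At an unadjusted p under 0.05 in the authors' DESeq2 values, 9 lay above 0 and 10 below (20% and 19.4% of all genes). The lower genes were RASSF2, a scaffold that binds MST kinases, at -0.87 (SE 0.067, adjusted p = 6.16e-37), and the kinase gene MAP4K2, at -0.80 (SE 0.11, adjusted p = 1.58e-12). The median of the list was -0.026, with 6 members above and 8 below 0 at an adjusted p under 0.001 and no limit. In either direction 18.2% of all genes passed it, and 32.3% of those with a mean of at least 100. None of 13 subunits of STRIPAK, the phosphatase complex that turns the MST kinases off, was called (6.76% of all genes). Their median was 0.11, and 3 of the 13 (23.1%) had an adjusted p under 0.001, all 3 above 0. That share was below the 32.3% of genes with a mean of at least 100, and it was 18.2% over all genes. At an unadjusted p under 0.05 in the authors' DESeq2 table, 8 were above 0 and 1 below (20% and 19.4% of all genes). Among genes with a mean of at least 100, as all 13 had, it was 3183 and 2947 of 10410.

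Of 19 further YAP-responsive genes, 3 were higher and 1 was lower (3.05% and 3.71% of all genes), with a median of 0.059. With no limit on the fold change 4 lay above 0 and 5 below at an adjusted p under 0.001. In either direction 18.2% of all genes passed it, and 32.3% of those with a mean of at least 100. At an unadjusted p under 0.05 it was 6 and 6 (20% and 19.4% of all genes). Among genes with a mean of at least 100 it was 3183 and 2947 of 10410. The higher genes were the matrix gene THBS1 at 0.77 (SE 0.055, adjusted p = 1.66e-42), the growth factor gene TGFB2 at 0.91 (SE 0.13, adjusted p = 2.52e-11), and GADD45A at 0.63 (SE 0.11, adjusted p = 3.33e-07). RBMS3, an RNA-binding protein gene, was lower at -0.90 (SE 0.15, adjusted p = 4.14e-08). Of these 19 genes 7 had an SE above that of 90% of their neighbours in count, against 9.58% of all genes.

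**Figure D5:**
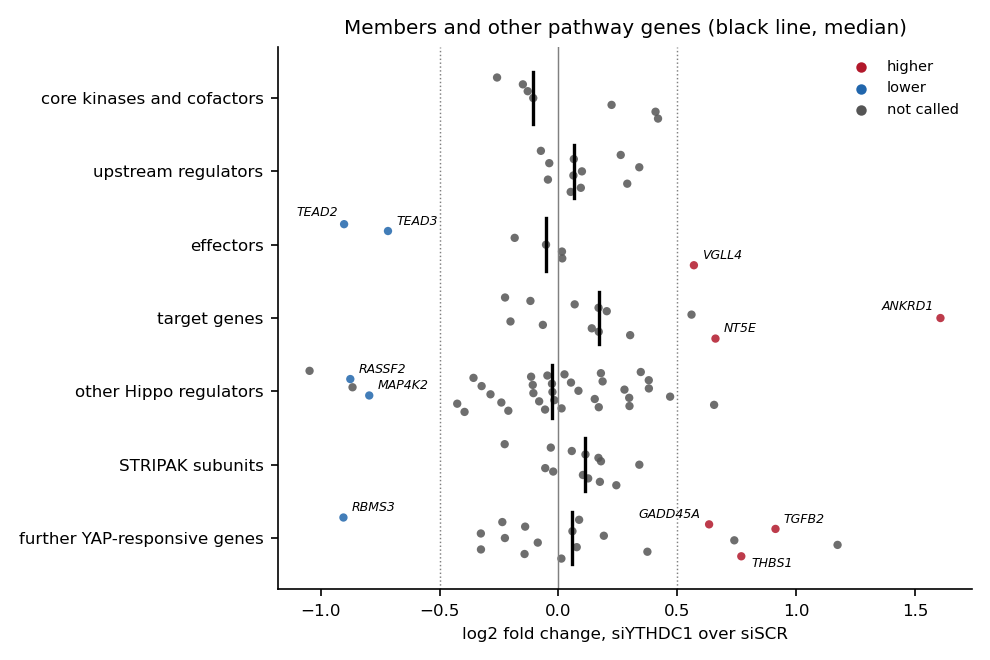
Log2 fold change of siYTHDC1 over siSCR (x axis) by list (y axis): 4 role groups of the members and 3 lists of other pathway genes, with 1 point per measured gene, red for higher, blue for lower and grey for not called. Black lines mark the medians, between -0.11 for the core genes and 0.17 for the targets, and dotted lines 0.5 in size; no core gene, upstream regulator or STRIPAK subunit was called.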

How the data were processed

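Total RNA-seq of 6 siYTHDC1 and 6 siSCR libraries of A549 cells was compared, with groups taken from the labels. After DNase treatment and removal of ribosomal RNA, libraries were made with a stranded kit. The authors aligned reads to hg19 with STAR, counted them per gene with HTSeq (GENCODE release 19) and fitted DESeq2 with sequencing batch (2 batches) as a covariate. The deposited table of that comparison is the sole file. Its signal column is the mean normalised count that the authors computed over all 12 libraries. The log2 fold change and its SE are as the authors deposited them, as are the Wald statistic, a score, and the p-value with its Benjamini-Hochberg adjustment over 22564 genes. These columns are the authors' own comparison, and no other values per gene were held. Depth per library is unknown, and no count model was refitted. Which libraries formed each batch is not in the labels.

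Intervals of 95% are normal intervals from the SE. Positions and exon lengths come from GENCODE release 44 mapped to GRCh37, matched to 96.6% of IDs and all 38 members, and promoters from RefSeq (GRCh38.p14). The members and lists were chosen with earlier results of these data known. All members are named, and of each other list at most 4 called genes by size of the statistic. WWC3, which was not called, is named in addition beside its paralogs. Alternatives were other limits, filters, a centring, a robust spread, a test of a change larger than 0.5, and, chosen after seeing the data, 200 nearest genes, longest transcripts and wider paralog intervals. A gene of a further list is not reported here. Tools were matplotlib 3.10.9, scipy 1.17.1, pandas 2.3.3 and numpy 2.4.6 under Python 3.11.15.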

Additional observations from a re-analysis of the deposited data

How the results depend on the processing

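No paired analysis was possible because the table holds no values per library, so neither a replicate block nor leaving out each replicate was run. The alternatives could not test the direction of a change. All but the centring keep the deposited log2 fold change, and the centring moved each value by 0.011, too little to change the sign of any member. With no limit on the fold change, 11 members were higher and 3 lower. With a limit of 1, ANKRD1 remained as the 1 higher gene and 0 were lower. Testing for changes beyond 0.5, with the deposited fold change and SE, called 0 higher and 1 lower (TEAD2, adjusted p = 3.10e-07), where ANKRD1 had an adjusted p of 0.00141, NT5E 0.270, TEAD3 0.629 and VGLL4 0.842. With the statistic divided by its robust spread of 2.14, 2 were higher and 1 lower, and the calls of ANKRD1 and TEAD3 were lost. With SEs widened by that spread, chosen after seeing the data, 8 of 17 paralog intervals left 0 in place of 13. An adjusted p of 0.05 added F3 (4 higher, 2 lower). A mean of at least 10 or 100, centring on the median of 0.011 and keeping every entry of a symbol each left 3 higher and 2 lower. No member symbol occurred more than once, so keeping every entry could change nothing. The filter at 10 left out no member and that at 100 only F3, which was not called. For the other members the filters changed the adjustment of p alone. Against the 200 nearest genes the SE percentile of MYOF was 70.5 in place of 74.6, and those of ANKRD1, AXL and IGFBP3 were 98 or more. Depth per library cannot be read, so what depth limits is known only through the SE.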
